A study of Mus musculus with 12 samples.

Results

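The ETS transcription factor genes Etv1, Etv4 and Etv5 and the phosphatase genes Dusp4, Dusp5, Dusp6 and Dusp7 were followed in sorted dermal papilla cells of control and dMF1/2 mice. The 7 genes were taken by name from the 14986 genes held by both deposited tables, and all 7 were found and passed the filter on low values. The dermal papilla is the cluster of mesenchymal cells in the hair bulb that signals to the follicle epithelium, and the study asked which transcripts in it depend on FGF receptors as growth (anagen) comes to its end. Cells were sorted at postnatal day 14 (P14) or 16 (P16), both in anagen, with 3 mice for each genotype and day and 1 library for each mouse. The dMF1/2 mice carried Cor-cre/+ with both copies of both receptor genes floxed (Fgfr1Flox/Flox; Fgfr2Flox/Flox). The controls are labelled wild type, and the control genotype with Cre in the study's methods is Cor-cre/+; Fgfr1Flox/+; Fgfr2Flox/+, which leaves 1 intact copy of each receptor gene in the recombined cells. All sorted cells carried Cor-cre, a Cre knocked into the Corin gene and used as specific to the dermal papilla, and a ROSA26 YFP reporter that Cre switches on. YFP-positive cells of dorsal skin were sorted in successive rounds, to enrich for cells in which Cre had acted on the reporter.

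FGF receptors signal through adaptors to Ras, Raf, MEK and the kinase ERK, which enters the nucleus and alters transcription. Among the genes that rise when ERK is active are Etv1, Etv4 and Etv5, which make up the PEA3 group of ETS factors and carry the signal on to further genes, and several dual-specificity phosphatases, which remove phosphate from ERK and so close a feedback loop. Of these phosphatases, the Dusp4 and Dusp5 proteins act in the nucleus and the Dusp6 and Dusp7 proteins in the cytoplasm, and Dusp4 also acts on the related kinases JNK and p38. In the follicle, FGF5 from the epithelium is known as a signal that ends anagen.

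The genes lie on 7 different chromosomes of GRCm38, Etv1 on chromosome 12 (38779380 to 38868215, plus strand), Etv4 on 11 (101769742 to 101785371, minus strand), Etv5 on 16 (22381309 to 22439719, minus strand) and Dusp4 on 8 (34807297 to 34819894, plus strand). Dusp5 lies on 19 (53529109 to 53542431), Dusp6 on 10 (99263231 to 99267488) and Dusp7 on 9 (106368632 to 106375724), all on the plus strand. RefSeq promoters (GRCm38.p6) were matched for 5 of the 7 genes, with 2 start sites each for Etv1 and Etv5. In the 250 bases before each start site, 6 motifs linked to ERK-regulated transcription were searched on both strands. They were the ETS core CCGGAA, held by 12% of the 32851 windows of all promoters, the AP-1 site TGANTCA (6.75%), the cyclic AMP response element TGACGTCA (1.55%), the CArG box of serum response factor (1.47%), the octamer TGAATGAA of the repressor Capicua (1.08%) and its first 6 bases, TGAATG (10.9%), which were added after the sequences had been read and which every octamer also holds. The 3 windows with a match are shown because they set Dusp5, which did not pass in the genotype comparison below, beside Etv5 and Dusp6, which did. Capitals mark the matches.
Etv5, start site 2, chr16:22438369-22438618, minus strand: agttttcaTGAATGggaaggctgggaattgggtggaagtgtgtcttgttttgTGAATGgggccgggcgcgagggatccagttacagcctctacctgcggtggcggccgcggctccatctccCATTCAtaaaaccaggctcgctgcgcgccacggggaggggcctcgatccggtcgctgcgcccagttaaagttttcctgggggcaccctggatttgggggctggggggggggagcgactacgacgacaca
Dusp6, chr10:99262981-99263230, plus strand: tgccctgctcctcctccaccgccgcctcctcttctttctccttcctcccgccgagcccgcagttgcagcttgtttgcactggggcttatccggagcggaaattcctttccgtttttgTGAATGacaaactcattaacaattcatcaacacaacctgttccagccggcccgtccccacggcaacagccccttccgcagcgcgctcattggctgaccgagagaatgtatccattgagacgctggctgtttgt
Dusp5, chr19:53528895-53529144, plus strand: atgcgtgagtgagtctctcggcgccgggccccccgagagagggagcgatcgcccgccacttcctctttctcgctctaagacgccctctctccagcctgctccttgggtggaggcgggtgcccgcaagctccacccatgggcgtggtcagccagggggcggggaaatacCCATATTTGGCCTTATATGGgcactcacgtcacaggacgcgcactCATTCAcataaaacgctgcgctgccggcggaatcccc
The Etv5 window held TGAATG at 3 places, on either strand, the Dusp6 window at 1 place and the Dusp5 window at 1 place. The bases that follow this Etv5 start site were not found in a reference transcript of the gene, unlike those of the other start sites. The Dusp5 window also held 2 adjacent CArG boxes, beginning 82 and 72 bases before the start site. Both Etv1 windows, the other Etv5 window and the Dusp7 window held none of these letters, and no window held the ETS core, the AP-1 site, the cyclic AMP response element or the Capicua octamer.

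Between 19302358 and 29860750 reads were assigned to genes in a library. All 14 dermal papilla markers checked were present, at 2040 to 8130 summed RPM (reads of the markers scaled to the depth of the library), and 10 dermal sheath and fibroblast markers stood at 4670 to 8510, against at most 43.2 for the keratinocyte, 4.14 for the melanocyte, 45.2 for the endothelial and 15 for the immune markers. The Fgfr1 total fell by 0.45 ± 0.108 (SE) on the log2 scale in dMF1/2 mice over both days (adjusted p = 0.0311), and Fgfr2 differed by -0.06 ± 0.1 (adjusted p = 0.804). Reads were counted over the whole gene and not by exon, so the loss of the floxed parts of the receptor genes was not tested. Both P14 replicate 1 libraries stood apart, with 17.7% (control) and 21.0% (dMF1/2) of reads from Col1a1, Col1a2 and Col3a1 against 27.2% to 36.1% in the other 10 libraries, and the P14 differences of the 7 genes, the changes of Dusp4 and Dusp5 in control mice and the interaction are given without them as well. In sorted bulk cells, fewer cells that express a gene and less RNA of it per cell cannot be told apart.

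At P16, Etv1, Etv4 and Etv5 were all lower in dMF1/2 than in control mice, and no library of one genotype overlapped the other. Etv4, the PEA3 factor that gave the group its name, had 278, 197 and 217 normalized reads in the control and 42.1, 41.1 and 43.4 in the dMF1/2 libraries (replicates 1 to 3). The dMF1/2 libraries lay within 3 reads of each other and far under the lowest control. Etv4 fell by 2.41 ± 0.166 (SE) on the log2 scale (limma, adjusted p = 0.00154), to 18.8% of the control level (percentages given with a log2 difference are that difference on the linear scale). Etv1 had 1238, 999 and 1155 normalized reads in control and 404, 283 and 370 in dMF1/2 libraries. It fell by 1.69 ± 0.148 on the log2 scale, to 31.0% of control (adjusted p = 0.00329). Etv5 had 830, 997 and 946 normalized reads in control and 553, 425 and 422 in dMF1/2 libraries, the smallest gap of the 3 factors as a ratio of the closest libraries. It fell by 0.99 ± 0.130 on the log2 scale, to 50.3% of control (adjusted p = 0.00841). These calls held in each of the 6 fits that left out 1 library, with adjusted p of at most 0.0259 for Etv1, 0.0124 for Etv4 and 0.0446 for Etv5. By the size of its p, Etv4 ranked 4 and Etv1 ranked 11 among the 13457 genes tested, and Etv5 ranked 91.

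**Figure D1:**
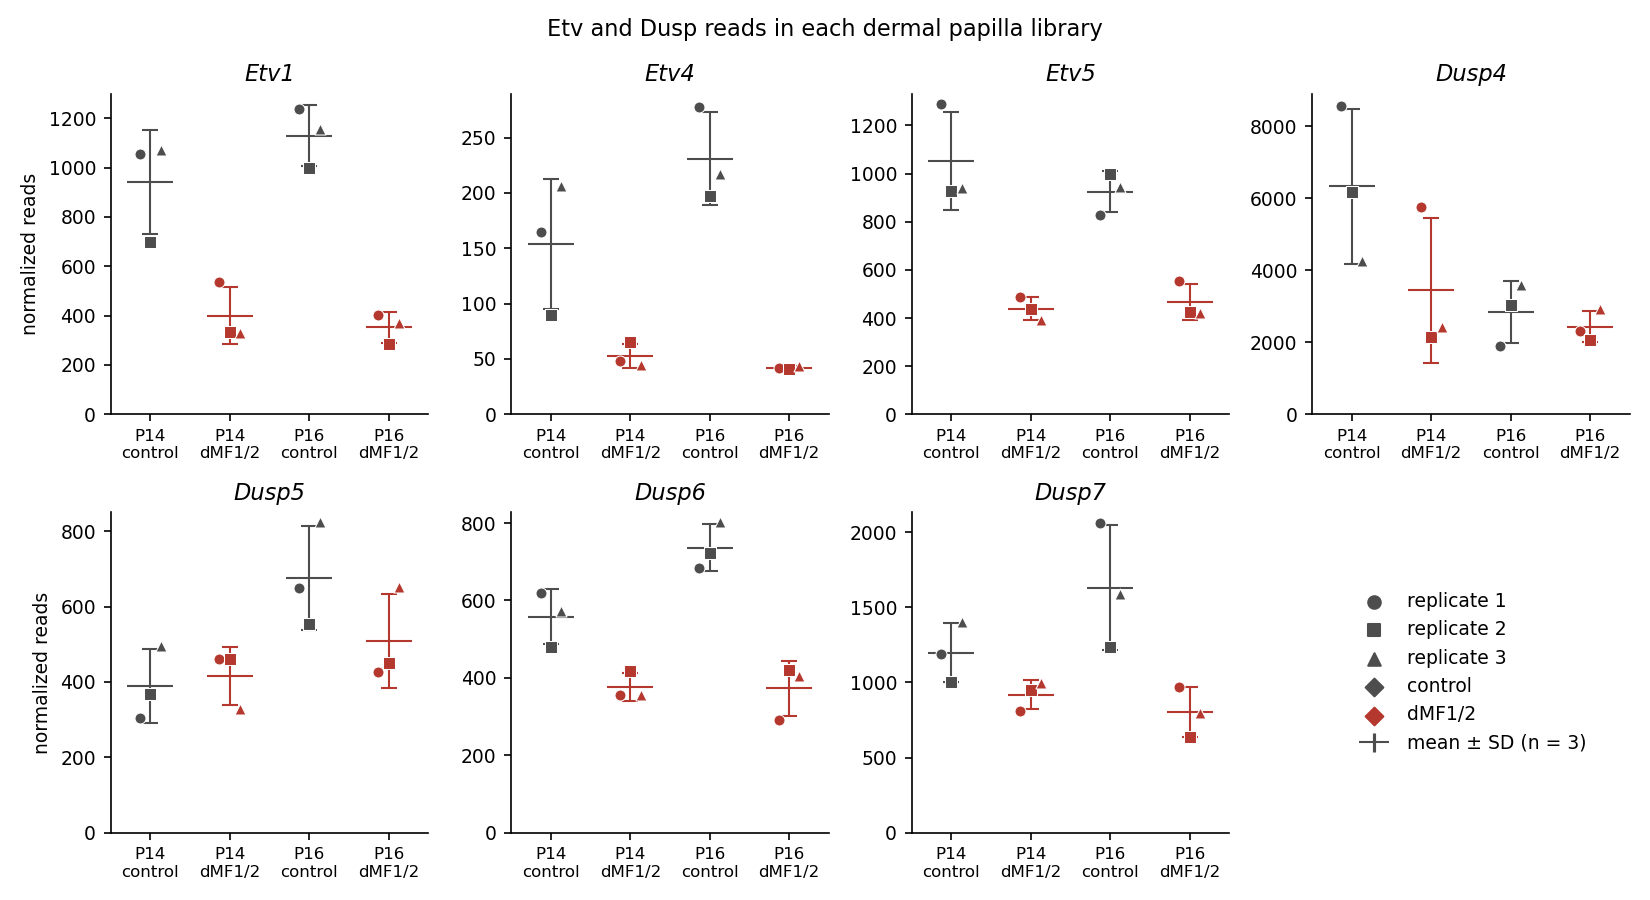
Normalized reads (y axes, from 0) of the 7 genes in each of the 12 libraries, by genotype and day. Points are libraries with a symbol for the replicate number, and bars are the mean ± SD (n = 3 mice). The dMF1/2 points of Etv1, Etv4, Etv5, Dusp6 and Dusp7 lie under every control point of the same day, while those of Dusp4 and Dusp5 overlap the controls.

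Of the phosphatase genes, Dusp6 and Dusp7 fell at P16, while the values of Dusp4 and Dusp5 overlapped between the genotypes. Dusp6, the cytoplasmic ERK phosphatase most used as a readout of FGF signalling, had 684, 723 and 803 normalized reads in control and 292, 421 and 405 in dMF1/2 libraries. It fell by 1.0 ± 0.150 on the log2 scale, to 50.1% of control (adjusted p = 0.0125). Dusp7, its cytoplasmic relative, had 2063, 1234 and 1589 normalized reads in control and 973, 638 and 797 in dMF1/2 libraries. Its libraries varied more within a genotype than those of Dusp6, and it fell by 1.01 ± 0.207, to 49.7% of control (adjusted p = 0.0364). Dusp5, a nuclear ERK phosphatase, had 648, 553 and 824 normalized reads in control and 426, 450 and 653 in dMF1/2 libraries. The highest dMF1/2 library lay within the control range, and the log2 difference was -0.41 ± 0.196 (95% interval -0.86 to 0.04, adjusted p = 0.31). With the replicate numbers as a block, this difference passed (adjusted p = 0.0348), and Dusp5 was lower in all 3 same-numbered pairs. Dusp4, the nuclear phosphatase with the broader range of kinases, had 1902, 3033 and 3581 normalized reads in control and 2307, 2066 and 2912 in dMF1/2 libraries. These ranges overlapped almost fully, with a log2 difference of -0.19 ± 0.229 (95% interval -0.72 to 0.34, adjusted p = 0.735).

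Over the 7 genes at P16, 5 passed, all lower, against 4.32% of all genes tested in either direction and 2.14% lower. The same 5 genes had dMF1/2 libraries that did not overlap the controls, beside 11.6% of all genes that were lower without overlap. The median log2 difference of the 7 genes was -1.0, beside -0.004 for all genes. With the block, 6 of the 7 passed, beside 10.4% of all genes. The call of Dusp6 was lost without P16 control replicate 3 (adjusted p = 0.0574), which left 3 of the 7 genes. That of Dusp7 was lost without control replicate 1 (0.0629) or 3 (0.113) and without dMF1/2 replicate 2 (0.0925) or 3 (0.12).

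At P14, the Etv genes also did not overlap between the genotypes, but none of the 7 genes passed the adjusted threshold, in a comparison where 0.0525% of all genes did. Etv1 had 1054, 700 and 1072 normalized reads in control and 535, 334 and 331 in dMF1/2 libraries. The log2 difference was -1.24 ± 0.240 (adjusted p = 0.243), or 42.2% of control. Etv5 had 1288, 929 and 940 normalized reads in control and 488, 437 and 392 in dMF1/2 libraries. The lowest control library lay farther above the highest dMF1/2 library, as a ratio, than for any other member at P14, with a log2 difference of -1.25 ± 0.153 (adjusted p = 0.0826). Etv4 had 165, 90.1 and 206 normalized reads in control and 47.9, 65.1 and 44.4 in dMF1/2 libraries. Its second control library came near the dMF1/2 range, and the difference was -1.47 ± 0.322 (adjusted p = 0.276).

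Dusp6 had 620, 480 and 573 normalized reads in control and 356, 419 and 357 in dMF1/2 libraries at P14. The genotypes did not overlap, with a log2 difference of -0.56 ± 0.128 (adjusted p = 0.291). Dusp7 had 1191, 1006 and 1402 in control and 809, 948 and 994 in dMF1/2 libraries, a narrow gap between the closest libraries (994 and 1006). Its difference was -0.38 ± 0.142 (adjusted p = 0.608). Dusp4 had 8546, 6178 and 4242 normalized reads in control and 5753, 2132 and 2419 in dMF1/2 libraries. Both replicate 1 libraries, those with few collagen reads, were the highest of their genotype, and the difference was -0.97 ± 0.409 (95% interval -1.94 to -0.01, adjusted p = 0.677). Dusp5 had 305, 367 and 496 in control and 461, 460 and 327 in dMF1/2 libraries. It showed no direction, with 0.11 ± 0.214 (95% interval -0.40 to 0.61, adjusted p = 0.991).

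At an unadjusted p under 0.05, 6 of the 7 genes differed at P14, beside 7.32% of all genes, and 5 of the 7 were lower with no overlap, beside 6.32%. With 3 mice against 3, the exact two-sided permutation test cannot go below p = 0.1, the value each of those 5 genes reached on both days. The P14 calls depended on the fit. With the replicate block, Etv1 (adjusted p = 0.00879), Etv5 (0.00176) and Dusp4 (0.0387) passed, beside 1.68% of all genes, and Etv4 did not (0.0773). DESeq2 on the recovered reads called Etv1 (adjusted p = 0.000471), Etv4 (0.00202), Etv5 (1.64e-08) and Dusp6 (0.0395), beside 1.55% of all genes. By edgeR 0 of the 7 passed, beside 0.0525% of all genes. Without both P14 replicate 1 libraries, 0 of the 7 passed, in a fit that called 9 of all genes tested. The log2 differences were then -1.38 ± 0.205 for Etv1, -1.32 ± 0.428 for Etv4, -1.17 ± 0.102 for Etv5, -1.17 ± 0.186 for Dusp4, -0.14 ± 0.220 for Dusp5, -0.44 ± 0.142 for Dusp6 and -0.29 ± 0.165 for Dusp7.

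Within the same-numbered pairs, the ratio of dMF1/2 to control at P16 ranged from 15.2% to 20.8% for Etv4, from 28.3% to 32.6% for Etv1 and from 47.2% to 51.7% for Dusp7. Dusp7, whose libraries spread widely within a genotype, thus had nearly the same ratio in each pair at P16, and at P14 its ratios were 67.9%, 94.3% and 70.9%. Dusp6 lay at 42.7% to 58.2% and Etv5 at 42.6% to 66.6%. At P14 the ratio ran from 21.6% to 72.3% for Etv4 and from 37.8% to 47.1% for Etv5, and Dusp4 was lower in all 3 pairs, at 67.3%, 34.5% and 57.0% of its control. At P16, Dusp4 was higher in pair 1 (121%) and lower in the other two.

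**Figure D2:**
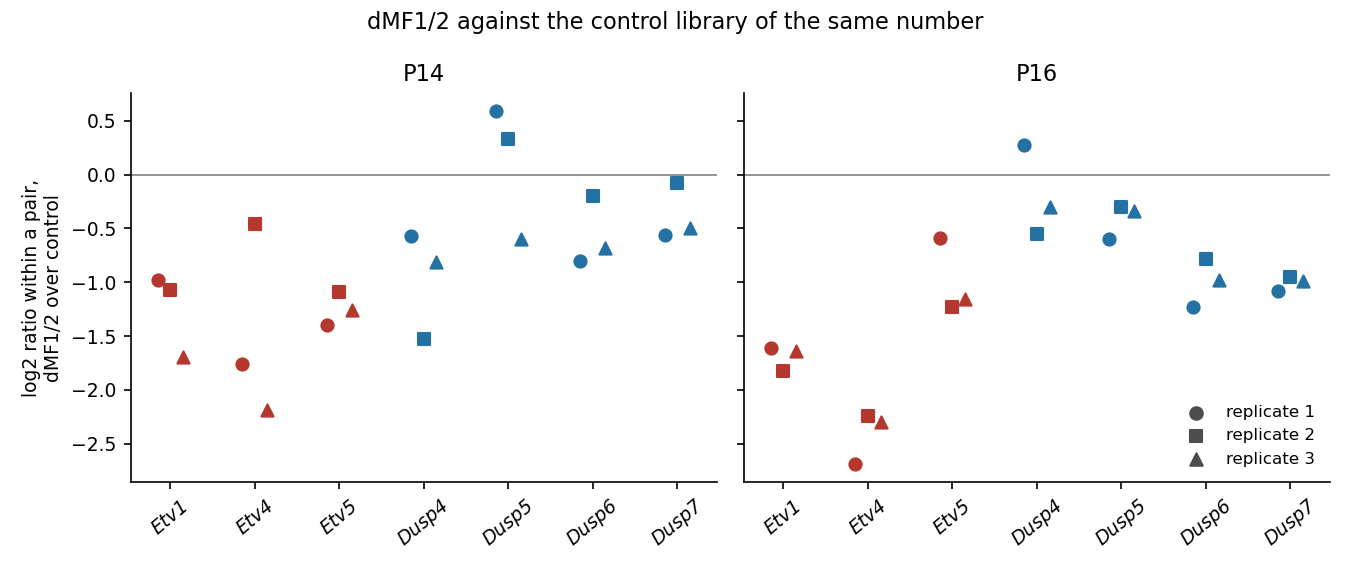
Log2 ratio of the dMF1/2 library to the control library of the same replicate number (y axis) for each gene at P14 (left) and P16 (right), with Etv genes in red and Dusp genes in blue. Every ratio of Etv1, Etv4, Etv5, Dusp6 and Dusp7 is under 0, those of Dusp7 at P16 lie between -1.08 and -0.95, and those of Dusp5 at P14 lie on both sides of 0.

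Averaged over both days in 1 fit of the 12 libraries, a comparison added after the data had been seen, 5 of the 7 genes were lower in dMF1/2 mice, beside 6.54% of all genes called and 3.36% called lower. Etv4 fell by 1.94 ± 0.190 on the log2 scale (adjusted p = 0.000744), Etv1 by 1.47 ± 0.154 (0.000906) and Etv5 by 1.13 ± 0.106 (0.000621). Dusp6 fell by 0.78 ± 0.105 (adjusted p = 0.00201) and Dusp7 by 0.70 ± 0.140 (0.0141). These 5 calls held in all 22 alternatives, each of the 12 fits that left out 1 library among them. The difference of Dusp4 was -0.59 ± 0.262 (95% interval -1.16 to -0.01, adjusted p = 0.232). It passed with the replicate block (adjusted p = 0.0228, beside 12.6% of all genes) and without P14 dMF1/2 replicate 1 (0.0486). Dusp5 differed by -0.16 ± 0.160 (95% interval -0.51 to 0.19, adjusted p = 0.668) and passed in none of its 22 alternatives. The median of the 7 genes was -0.78, beside -0.003 for all genes.

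**Figure D3:**
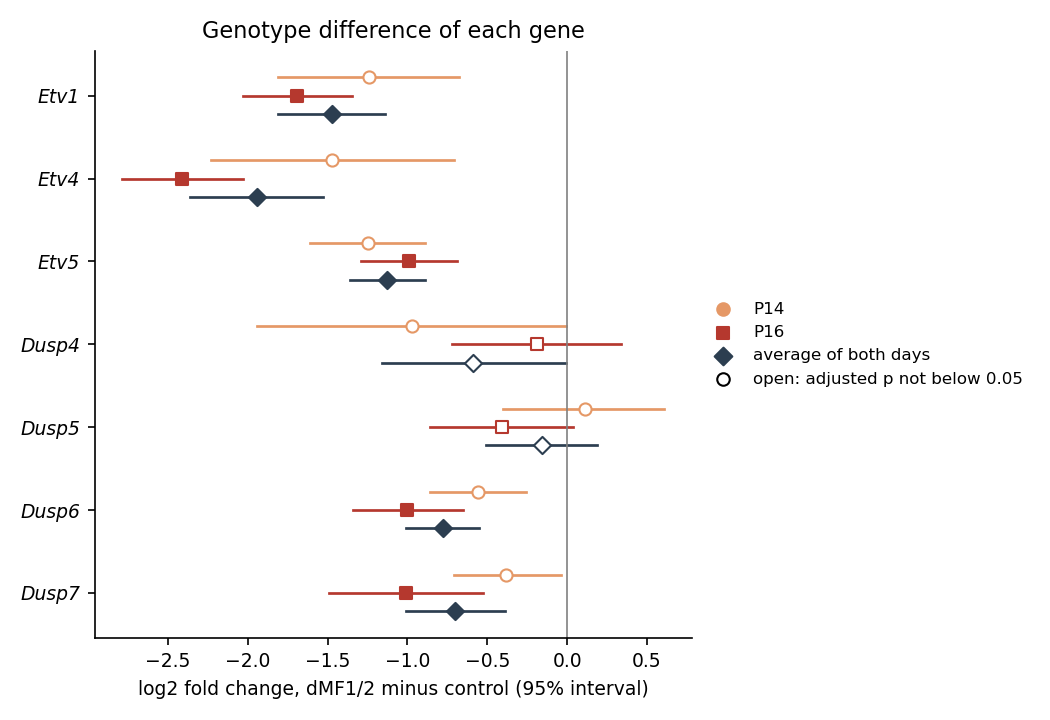
Log2 difference between dMF1/2 and control (x axis) with its 95% interval for each gene at P14, at P16 and averaged over both days. Filled symbols passed at an adjusted p of 0.05. The intervals of the 3 Etv genes reach no higher than -0.68 on any line, and those of Dusp5 cross 0 on every line.

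Whether these differences grew from P14 to P16 was tested as an interaction of genotype and day, which 0 of the 7 genes and 0% of all genes passed by limma, with 2 of the 7 and 4.83% of all genes at an unadjusted p under 0.05. Etv4 had the largest negative estimate, -0.94 ± 0.379 on the log2 scale (unadjusted p = 0.0298), followed by Dusp7 at -0.63 ± 0.280 (0.0436) and Dusp5 at -0.52 ± 0.321. Dusp6 lay at -0.44 ± 0.210 (unadjusted p = 0.0579) and Etv1 at -0.45 ± 0.308. Etv5 (0.25 ± 0.212) and Dusp4 (0.78 ± 0.524) had estimates of the other sign. Over the fits that left out 1 library, the Etv4 estimate ran from -1.19 to -0.6. That of Dusp7 ran from -0.82 to -0.45 and that of Etv1 from -0.57 to -0.22. Without both P14 replicate 1 libraries, the estimates of Etv4 (-1.08 ± 0.444), Dusp4 (0.98 ± 0.362), Dusp7 (-0.72 ± 0.323) and Dusp6 (-0.56 ± 0.235) were farther from 0, those of Dusp5 (-0.27 ± 0.337), Etv1 (-0.31 ± 0.272) and Etv5 (0.18 ± 0.186) were nearer to it, and 0 of the 7 passed. With the replicate block, 5 of the 7 (Etv1, Etv4, Dusp4, Dusp6 and Dusp7) had an unadjusted p under 0.05, beside 10.9% of all genes, and none passed, with the smallest adjusted p at Dusp7 (0.184). No member passed by DESeq2 or edgeR either, and edgeR called 0 of all genes and DESeq2 7. The size of the genotype difference on one day was therefore not shown to differ from that on the other for any of the 7 genes.

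From P14 to P16 in control mice, 1 of the 7 genes was called, a share near the 14.5% of all genes called (6.26% called higher), on jointly rescaled reads that put both days on one scale. The gene was Dusp5, which went from 394 ± 99.2 (SD, n = 3) to 665 ± 137 jointly rescaled reads, a rise of 0.76 ± 0.227 (SE) on the log2 scale (adjusted p = 0.0449). Its groups did not overlap, nor did those of Dusp4 and Dusp6, as for 36% of all genes. The call stood close to the threshold: it held in 5 of the 12 fits that left out 1 library, with adjusted p of 0.0229 to 0.157, and was lost without both P14 replicate 1 libraries (0.144) and on the 6 control libraries alone (0.0737). Dusp4 went from 6407 ± 2182 to 2798 ± 846 jointly rescaled reads with no overlap, a difference of -1.19 ± 0.371 (adjusted p = 0.0532), and passed by DESeq2 (0.0105). Without both P14 replicate 1 libraries it was -0.94 ± 0.256 (adjusted p = 0.0546). Between the same control groups, 5 of 10 dissociation stress genes (median 0.71) and 1 of 6 endothelial markers (median 1.93) were called higher and 5 of 14 dermal papilla markers lower (median -0.87), and their part in the changes of Dusp5, Dusp4 and the other pathway genes was not tested. Etv4 (0.61 ± 0.268, adjusted p = 0.144), Dusp7 (0.38 ± 0.198, 0.208) and Dusp6 (0.36 ± 0.148, 0.117) had positive estimates that did not pass. Etv1 (0.24 ± 0.218, adjusted p = 0.471) and Etv5 (-0.22 ± 0.150, 0.35) lay nearer to 0. In dMF1/2 mice none of the 7 genes passed in any alternative, beside 5.8% of all genes, and the estimates ran from -0.41 ± 0.371 (Dusp4) to 0.24 ± 0.227 (Dusp5). Without P14 dMF1/2 replicate 1, that of Dusp4 was 0.04 ± 0.301. Etv4 in dMF1/2 mice went from 53.0 ± 11.1 to 41.4 ± 1.12 jointly rescaled reads. The 3 P16 libraries all lay under the 3 P14 libraries, as for 14.4% of all genes (27.6% did not overlap in either direction), with a difference of -0.33 ± 0.268 (adjusted p = 0.508).

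**Figure D4:**
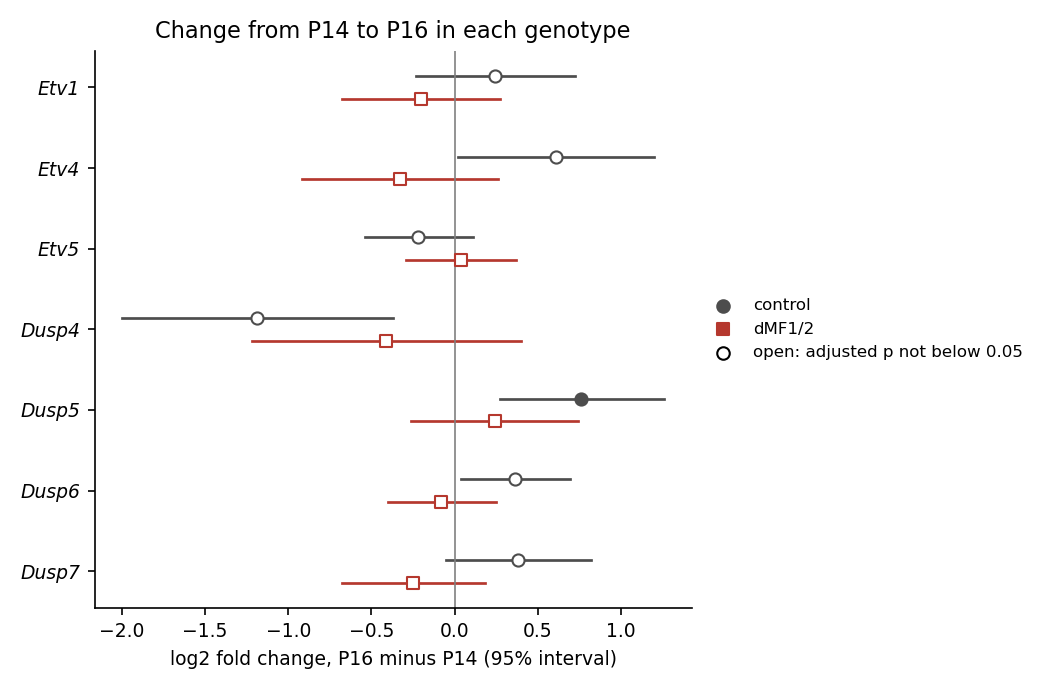
Log2 difference between P16 and P14 (x axis) with its 95% interval for each gene in control (circles) and dMF1/2 mice (squares), from the fit of all 12 libraries. Dusp5 in control mice is the 1 filled symbol, with an adjusted p of 0.0449, and Dusp4 in control mice lies farthest from 0 at -1.19.

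Levels of different genes were compared per kilobase of exon, on the jointly rescaled scale. In every group Dusp4 was the highest of the 7 and Dusp7 came next. In P14 control libraries Dusp4 stood at 2340 ± 796 (SD, n = 3) reads per kilobase, followed by Dusp7 (362 ± 59.7), Etv5 (260 ± 50.3), Dusp6 (180 ± 22.9), Dusp5 (160 ± 40.1), Etv1 (71.8 ± 15.9) and Etv4 (50.1 ± 19.1). Dusp6 and Dusp5 were closer than their SD. In P16 control libraries the order was Dusp4 (1020 ± 309), Dusp7 (478 ± 123), Dusp5 (269 ± 55.5), Dusp6 (232 ± 19.5), Etv5 (222 ± 20.3), Etv1 (83.8 ± 9.13) and Etv4 (73.2 ± 13.4). Here Dusp5, Dusp6 and Etv5 lay within an SD of their neighbours, as did Etv1 and Etv4. In P16 dMF1/2 libraries Dusp4 stood at 869 ± 156, Dusp7 at 235 ± 48.3, Dusp5 at 202 ± 49.7, Dusp6 at 117 ± 22.4, Etv5 at 112 ± 17.6, Etv1 at 26 ± 4.55 and Etv4 at 13.3 ± 0.360. The gaps between Dusp7 and Dusp5 and between Dusp6 and Etv5 were smaller than an SD there. Etv4 was the lowest in all 4 groups and rested on 39 to 44 reads in each P16 dMF1/2 library, so its level there carries the widest relative counting error of the 7.

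Across the 12 libraries, Etv1, Etv4, Etv5, Dusp6 and Dusp7 varied together, while Dusp4 and Dusp5 each went their own way. Pearson's r on the log2 scale was 0.948 between Etv1 and Etv4, 0.931 between Etv4 and Dusp6 and 0.919 between Etv1 and Etv5, and no pair among the 5 genes was under 0.692. Dusp4 reached at most 0.582 (with Etv5), Dusp5 at most 0.448 (with Dusp6), and r between Dusp4 and Dusp5 was -0.351. These values describe 12 libraries that share their depth scaling and contain the genotype difference itself. Among 10239 genes with a mean of at least 100 jointly rescaled reads, the genes nearest to Etv1 were Sh2b3 (r = 0.973), Kif21b (0.969) and Dazap2 (0.962), and those nearest to Etv4 were Fxyd5 (0.983), Sh2b3 (0.971) and Rhod (0.964). Nhsl1 (0.963), Gpd2 (0.951) and Bmp3 (0.949) were nearest to Etv5. Ripk3 (0.945), Rhod (0.932) and Etv4 (0.931) were nearest to Dusp6, and Ahcy (0.962), Igsf8 (0.958) and Vdr (0.943) to Dusp7. Dusp4 was most like Spry4 (0.971), Spry1 (0.957) and Adrbk1 (0.953), and Dusp5 like Pim1 (0.950), Mob3c (0.949) and Fam107b (0.947). Against the mean z-score of the 7 genes, Sh2b3 (0.981), Sept11 (0.973), Kif21b (0.971), Tgfb1 (0.969) and Arpc1b (0.961) were highest.

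Of the 96 other genes tested in 10 lists from receptor to ERK targets, 6 (6.25%) were called at P16, beside 4.32% of all genes. At P16, 19% of all genes had an unadjusted p under 0.05, DESeq2 called 8.51% and edgeR 4.48%, the shares beside which the counts of each list stand. Over both days 13 of the 96 (13.5%) were called, beside 6.54% of all genes. Of 4 FGF receptor genes 0 passed at P16 by limma (median log2 difference -0.10), with 1 at an unadjusted p under 0.05 and 1 called by DESeq2. Fgfr1, with 8512 to 12517 normalized reads in control and 6226 to 8015 in dMF1/2 libraries, differed by -0.50 ± 0.158 (adjusted p = 0.13), Fgfr4 by -0.12 ± 0.136 (0.713) and Fgfrl1 by -0.07 ± 0.143 (0.854). Of 10 adaptor genes 1 was lower, Gab2, a docking protein, at -0.48 ± 0.107 (adjusted p = 0.0459). Of 16 genes of Ras, Raf, MEK and ERK 1 was higher at P16, the scaffold gene Ksr1, at 0.96 ± 0.110 (adjusted p = 0.00604), opposite in sign to all 7 genes. Its normalized reads were 778 to 853 in control and 1383 to 1806 in dMF1/2 libraries. Over both days Ksr1 (0.74 ± 0.110, adjusted p = 0.0033) and the ERK gene Mapk3 (-0.29 ± 0.0709, 0.0345) passed, the latter named after its value was seen. The gene of the Ras GTPase-activating protein Rasa3 fell at P16 by 0.90 ± 0.153 (adjusted p = 0.019), 1 of 6 such genes.

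Among other feedback inhibitors and phosphatases, Dusp2 fell by nearly as much as Etv4. Dusp2 encodes a nuclear phosphatase, and its normalized reads at P16 were 114 to 227 in control and 33.6 to 47.6 in dMF1/2 libraries, a fall of 2.06 ± 0.275 on the log2 scale (adjusted p = 0.00866). It was 1 of 6 other MAP kinase phosphatase genes to pass, with a median of -0.69 over the list. Of the 6, 5 had an unadjusted p under 0.05, beside 19% of all genes, and DESeq2 called 3, beside 8.51%. Dusp10, which acts on JNK and p38, had an estimate of the other sign, 1.33 ± 0.351 (adjusted p = 0.0787). Of the 7 Sprouty, Spred and Sef genes tested, which restrain the pathway upstream of ERK, 0 passed at P16 by limma (median -0.24), with 3 at an unadjusted p under 0.05 and 2 called by DESeq2. Over both days Spred1 (-0.32 ± 0.0554, adjusted p = 0.00681), Spred2 (-0.43 ± 0.0985, 0.0254) and Il17rd (-0.28 ± 0.0748, 0.0488) were lower. Spred2 was named after its value was seen. Spry1 did not pass (-0.19 ± 0.163), nor did Spry4 (-0.82 ± 0.276, adjusted p = 0.108).

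**Figure D5:**
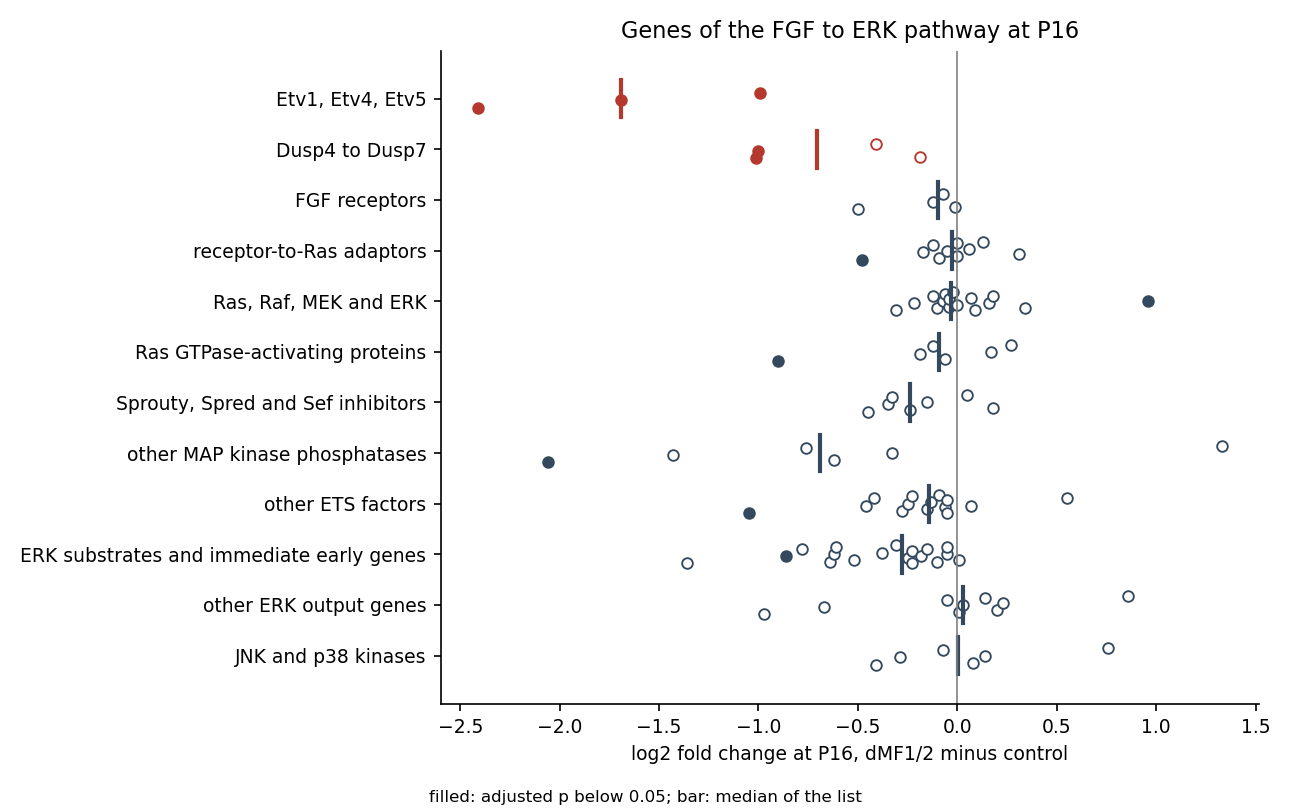
Log2 difference between dMF1/2 and control at P16 (x axis) for each gene tested in 12 lists of the path from FGF receptor to ERK targets, with the list's median as a bar and filled points for an adjusted p under 0.05. The Etv and Dusp genes followed here are red, with medians of -1.69 and -0.70; the next lowest median is that of the other MAP kinase phosphatases, at -0.69.

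Of 14 other ETS factor genes tested, Ets2 was lower at P16, with 2284 to 3474 normalized reads in dMF1/2 against 4154 to 7641 in control libraries (-1.05 ± 0.230, adjusted p = 0.0449), and the list's median was -0.14. Of 18 ERK substrate and immediate early genes 1 passed, Myc, at -0.86 ± 0.186 (adjusted p = 0.0426), while 17 of the 18 had estimates under 0 (median -0.28). In this list, 6 had an unadjusted p under 0.05 and DESeq2 called 3. Fosl1, a member of the AP-1 family, was at -1.36 ± 0.312 (adjusted p = 0.0523) and passed over both days (-1.19 ± 0.310, 0.0436), named after its values were seen. Of the 9 other ERK output genes tested, 0 passed at P16 by limma (median 0.03), with 3 at an unadjusted p under 0.05, 3 called by DESeq2 and 1 by edgeR. Epha2, a receptor gene induced by ERK, passed over both days at -0.60 ± 0.155 (adjusted p = 0.0415). Of 6 JNK and p38 kinase genes tested, 0 passed at P16 by limma (median 0.01), with 1 at an unadjusted p under 0.05 and 0 called by DESeq2 or edgeR. With the replicate block, more genes passed at P16 in 7 of these lists, as over all genes (10.4% against 4.32%), 5 ERK substrate and immediate early genes, 4 other phosphatases, 3 other ETS factors, 3 genes of Ras, Raf, MEK and ERK, 3 output genes, 2 Sprouty, Spred and Sef genes and 1 FGF receptor gene.

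Between days, 16 of the 96 genes of the other pathway lists (16.7%) were called in control mice, beside 14.5% of all genes, and 6 (6.25%) in dMF1/2 mice, beside 5.8%. From P14 to P16 in control mice, the inhibitor gene Spry1 fell by 0.84 ± 0.230 on the log2 scale (adjusted p = 0.0338) and Dusp10 by 1.56 ± 0.346 (0.0152). Dusp2 rose by 1.57 ± 0.404 (adjusted p = 0.0269), Ets2 by 1.3 ± 0.275 (0.0127) and Epha2 by 0.76 ± 0.219 (0.0402). Rasa3 (0.82), Mapk8 (0.66), Braf (0.59), Il17rd (0.52), Elf1 (0.38), Rasa2 (0.35), Spred1 (0.35), Atxn1l (0.29) and Elk4 (0.27) rose as well in log2 difference, and Ksr1 (-0.52) and Elk1 (-0.38) fell. In dMF1/2 mice, Rasa2 (0.45), Braf (0.39), Mapk8 (0.39), Spred1 (0.32) and Nras (0.31) rose and Elk1 (-0.42) fell, while none of the 7 Etv and Dusp genes passed there.

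The levels of 3 marker lists are set beside the P16 differences of the 7 genes. The 10 genes of a dissociation stress list, 5 of which are immediate early genes named in that list too, all had estimates under 0 at P16 (median -0.41, 1 passing), and their summed level was 11900 to 15900 RPM in control and 10000 to 12800 in dMF1/2 libraries. The 6 endothelial markers summed to 14 to 45.2 RPM in P16 control and 22.5 to 36.8 in dMF1/2 libraries, with 5 of 6 estimates under 0 (median -0.97) and 0 called. The dermal papilla markers went the other way, at 2040 to 3670 in control and 3980 to 6240 in dMF1/2 libraries, with 4 of 14 estimates under 0 (median 0.92). Of the 14, 3 were called higher and 1 lower, beside 4.32% of all genes called. An unadjusted p under 0.05 was reached by 11 of the 14, beside 19% of all genes. At P14 the summed stress level was 9130 to 12000 in control and 9110 to 12500 in dMF1/2 libraries, with 8 of 10 estimates under 0 (median -0.24) and 0 called by limma. The part of these markers in the differences of the 7 genes was not tested.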

How the data were processed

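RNA-seq was done on 12 libraries of YFP-positive dermal papilla cells, 3 mice for each genotype and day. The authors depleted ribosomal RNA, made stranded libraries, trimmed reads with Trimmomatic, aligned them with TopHat2 to mm10 and counted them per gene with HTSeq on GRCm38.p4. They deposited 1 table for each day, with gene counts divided by DESeq2 size factors, a signal scaled separately in each table. The tables also hold the authors' own comparisons (fold changes, standard errors and p-values), which were not used. Dividing by what 1 read is worth gave whole reads for 100% of values (tolerance 0.001), so 19302358 to 29860750 reads lay behind a library.

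Within each day, limma 3.58.1 with a mean-variance trend (R 4.3.3) compared the genotypes on log2(normalized reads + 1). Genes averaging fewer than 10 normalized reads were left out, and p-values were adjusted by Benjamini-Hochberg over all genes tested, with a threshold of 0.05. Changes between days, the interaction and the average over both days came from 1 fit on the recovered reads of 14986 shared genes, rescaled together by median of ratios. SE and 95% intervals are those of limma. Same-numbered libraries deviated together within a day (correlations across genes of 0.304 to 0.586 at P14 and 0.256 to 0.311 at P16), so numbers were taken as pairs in an alternative with a replicate block. Across days the correlations were -0.162 to 0.208. For the changes between days, the block still joined same-numbered libraries of both days. edgeR 4.0.16 and DESeq2 1.42.0 on the recovered reads, other pseudocounts, filters and scaling, and leaving out each library were alternatives. Single genes were also compared by exact permutation (scipy 1.17.1). The scripts were tested on simulated data. A called gene has an adjusted p under 0.05.

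The 7 genes and all lists were chosen with earlier results of these data known. Named were the 7 genes, each other list's genes called in any comparison within or between days (with none called, the 3 with the smallest p at P16) and the genes nearest in pattern.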

Additional observations from a re-analysis of the deposited data

How the results depend on the processing

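Of 847 recomputed log2 differences of the 7 genes, 802 kept their sign and their side of the threshold. The count of the 7 genes called at P14, 0, became 3 with the replicate block in limma and in edgeR, 4 by DESeq2 and 1 (Etv5) in the joint fit of 12 libraries, and stayed at 0 in every fit without 1 library. At P16 it ranged from 3 to 5 without 1 library, with 3 without P16 control replicate 3. For control mice from P14 to P16, it ranged from 0 to 2 without 1 library, and was 2 by DESeq2, 0 on the 6 control libraries alone and 0 without both P14 replicate 1 libraries. Apart from the calls of Etv1, Etv5 and Dusp4 at P14, Dusp5 at P16 and Dusp4 over both days, the replicate block changed no call of the 7 genes. The sign turned for some values. Dusp5 at P14 became -0.06 without P14 control replicate 1 and -0.14 without both P14 replicate 1 libraries, and Dusp4 at P16 became 0.00068 without P16 control replicate 3. From P14 to P16 in dMF1/2 mice, Etv1 became 0.03 and Dusp4 0.04 without P14 dMF1/2 replicate 1 and without both P14 replicate 1 libraries. There, Etv5 became -0.04 without P14 dMF1/2 replicate 3 and -0.09 without P16 dMF1/2 replicate 1, and Dusp6 3e-05 without P14 dMF1/2 replicate 2 and 0.09 without P16 dMF1/2 replicate 1. The cause was not tested. Without 1 library, these differences ranged from -0.06 to 0.3 (Dusp5, P14) and -0.46 to 0.00068 (Dusp4, P16), and in dMF1/2 mice between days from -0.32 to 0.03 (Etv1), -0.09 to 0.12 (Etv5), -0.68 to 0.04 (Dusp4) and -0.18 to 0.09 (Dusp6).

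Over all genes, 7 passed at P14, against 224 with the block, 245 with the block in edgeR, 207 by DESeq2 and 11 in the joint fit. At P16, 582 passed, against 1403, 1439 and 1123 for the first 3 of these, and over both days 877 against 1684, 1728 and 1334. From P14 to P16, 1951 passed in control mice (806 on their 6 libraries alone, 951 without both P14 replicate 1 libraries) and 778 in dMF1/2 mice (322 alone, 1341 by DESeq2). For the interaction 0 passed, 7 by DESeq2, 0 to 2 without 1 library (2 without P14 control replicate 1, and 1 without P16 control replicate 2 or P16 dMF1/2 replicate 1) and 2 without both P14 replicate 1 libraries. Without 1 library, the counts were 0 to 18 at P14 (18 without P14 control replicate 2), 149 to 684 at P16 (149 without P16 dMF1/2 replicate 3), 693 to 2129 between days in control mice (693 without P16 control replicate 1), 257 to 861 in dMF1/2 mice (257 without P16 dMF1/2 replicate 1) and 428 to 882 over both days (428 without P14 control replicate 3). Depth limits Etv4 most, with 39 to 44 reads in each P16 dMF1/2 library.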
